A study of Homo sapiens with 8 samples.

Results

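Bone morphogenetic protein (BMP) ligands, ID genes, inhibitory SMADs and the genes nearest to them were described in SW480, a human colorectal adenocarcinoma cell line. The set holds 10 genes, taken by symbol out of 58735 in the count table: BMP2, BMP4 and BMP7 (ligands), ID1, ID2 and ID3 (targets), SMAD6, SMAD7, SMAD9 and BAMBI. Cells transduced with lentivirus for FLAG-tagged SPOCK1, a secreted proteoglycan of the extracellular matrix, were compared with cells transduced with the empty vector. Both groups were kept under puromycin, and each had 4 libraries. Nothing in the labels ties a library to a culture or an infection of its own. All p-values here therefore rest on the spread between 8 libraries, and part or all of that spread can be technical. Any further difference between the selected cell populations cannot be told apart from SPOCK1 itself.

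BMP ligands are secreted dimers that bind type I and type II receptor kinases. The receptors phosphorylate SMAD1, SMAD5 and SMAD9, which enter the nucleus with the shared partner SMAD4 and switch on direct targets, ID1, ID2 and ID3 among the best known. ID proteins are helix-loop-helix proteins without a DNA-binding region, and they hold E proteins such as TCF3 and TCF12 off DNA. SMAD6 and SMAD7 are inhibitory SMADs, and BAMBI is a transmembrane pseudoreceptor without a kinase. All 3 are feedback inhibitors that the pathway itself can induce. SMAD9 is a receptor-regulated SMAD and not an inhibitory one. In the colon, BMP signals favour differentiation towards the top of the crypt. BAMBI, ID2 and BMP4 have also been described as targets of β-catenin in colorectal cancer cells, and SW480 is widely used as a SMAD4-deficient line.

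Libraries held 35643585 to 42812951 counts, and SPOCK1 itself averaged 220.6 ± 31.1 CPM (counts relative to TMM-scaled library size) in SPOCK1 libraries and 0.0959 ± 0.0722 CPM in vector libraries (SD, n = 4 each). The summed level of 10 epithelial and colonic markers was 14509 to 16200 CPM in SPOCK1 libraries and 12929 to 15829 CPM in vector libraries. Keratins KRT8, KRT18 and KRT19 made up most of it, averaging 8806, 4715 and 1477 CPM with SPOCK1 and 8281, 4515 and 1335 CPM with vector. The sum therefore says little of the other markers. Of 7 tested markers 1 fell, where 0.798% of all tested genes did. It was CDH1 (E-cadherin), at 11.2 ± 1.21 CPM with SPOCK1 and 17.8 ± 1.29 CPM with vector (SD, n = 4 each, edgeR adjusted p = 0.00537). Of the 5 intestinal markers, CDX2 averaged 93.1 ± 10.3 CPM with SPOCK1 and 104.3 ± 8.36 CPM with vector (edgeR adjusted p = 0.452). VIL1 averaged 64.8 ± 7.67 CPM with SPOCK1 and 78.0 ± 3.43 CPM with vector (edgeR adjusted p = 0.197). Its groups did not overlap, which 8.23% of all tested genes had as well. The other intestinal markers, KRT20, CDX1 and LGALS4, had 12, 2 and 2 counts in all SPOCK1 libraries together and 7, 0 and 1 in all vector libraries. The summed level of 13 markers of other cell types was 7.15 to 11.6 CPM in SPOCK1 libraries and 7.36 to 9.18 CPM in vector libraries. Of these, 6 were tested and none passed. ACTA2 had 499 counts in all SPOCK1 libraries together and 512 in all vector libraries, and VWF had 156 counts with SPOCK1 and 155 with vector. HBA1 had 12, 95, 196 and 15 counts in SPOCK1 libraries 1 to 4 and 23, 36, 28 and 36 in vector libraries 1 to 4 (adjusted p = 0.328, edgeR). PTPRC and COL1A2 had 0 counts in all SPOCK1 libraries together and 4 and 3 in all vector libraries, and COL3A1 had 6 counts in SPOCK1 libraries and 0 in vector libraries. The part of these markers in the results was not tested. Ribosomal RNA genes, those of mitochondria included, took 0.56% to 0.67% of counts in SPOCK1 libraries and 0.696% to 0.738% in vector libraries, without overlap. The part of this difference in the results below was not tested. Libraries 1 and 3 of both groups stood apart from libraries 2 and 4 by a trend with GC content. With genes in 5 groups of near equal size by GC content, the group of highest GC had lower log2 levels than that of lowest GC, relative to the mean of all libraries, in libraries 1 and 3 (differences of -0.265 and -0.176 with SPOCK1, and -0.119 and -0.148 with vector). In libraries 2 and 4 the differences were 0.015 and 0.243 with SPOCK1, and 0.194 and 0.258 with vector.

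In SPOCK1-overexpressing cells, 0 of the 8 tested genes of the set passed an adjusted p of 0.05 in edgeR's quasi-likelihood test, where 1.04% of the 15790 genes tested did (0.247% higher and 0.798% lower). DESeq2, which called 2.64% of its genes, and limma-voom, which called 0.944%, also called 0 of the 8. BMP2 and SMAD9 had too few counts to be tested. At an unadjusted p under 0.05 were 3 of the 8, namely BMP4, ID2 and SMAD6, where 13.7% of all tested genes were. The same 3 had no overlap between the groups, which 8.23% of all tested genes had (3.43% higher and 4.8% lower). BMP4 and ID2 were higher in every SPOCK1 library than in any vector library, and SMAD6 was lower in every one. The median log2 fold change (SPOCK1 over vector) of the 8 was 0.06, and that of all tested genes was -0.0042.

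**Figure D1:**
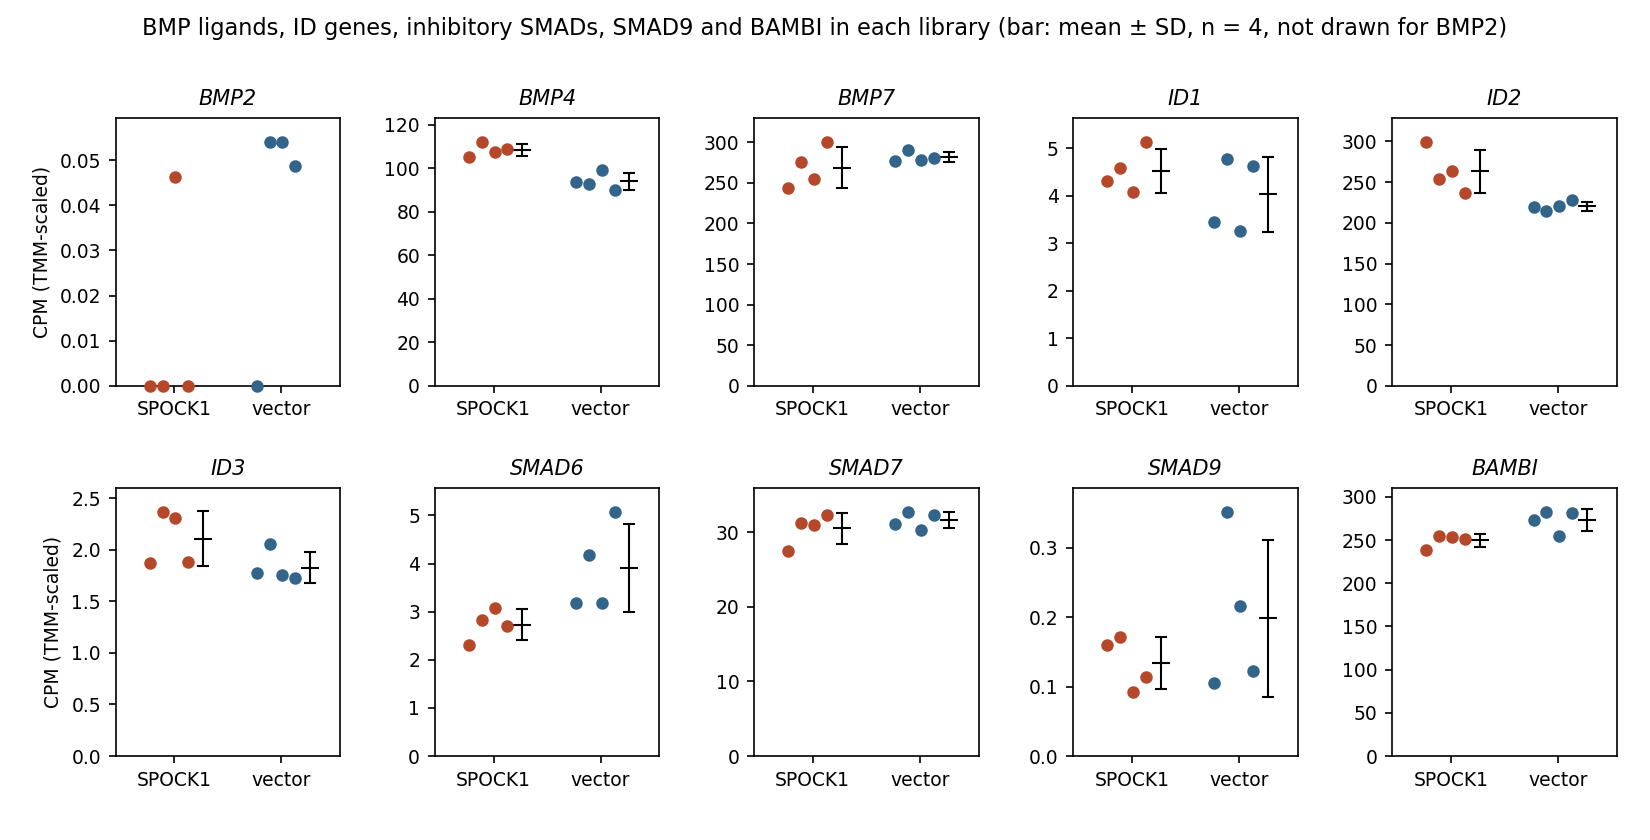
CPM on TMM-scaled library sizes (vertical axes, linear, from 0) of the 10 genes in 4 SPOCK1 libraries (left) and 4 vector libraries (right), 1 point per library, with the mean and SD beside them except for BMP2, which had at most 2 counts in a library. The groups are apart for BMP4, ID2 and SMAD6, and overlap for the other tested genes.

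The sequences around transcription starts are shown for the 3 ID genes, the direct targets of the pathway, and for BAMBI and BMP4. For BAMBI and BMP4 the window shown is that in which the core of the GC-rich BMP response element was found. Each is a RefSeq window on GRCh38.p14 of 250 bases before to 50 after a start, 5′ to 3′ along the gene. Capitals mark GGCGCC, that core, and CAGAC or its reverse complement GTCTG, a SMAD-binding element with a flanking base. Another motif, CTTTGAT, a core of TCF/LEF sites, was searched on both strands as well. The windows are chr20:31605039-31605338 (plus strand) for ID1, chr2:8681806-8682105 (plus strand) for ID2, chr1:23559452-23559751 (minus strand) for ID3, chr10:28677271-28677570 (plus strand) for BAMBI and chr14:53955001-53955300 (minus strand) for BMP4.
ID1: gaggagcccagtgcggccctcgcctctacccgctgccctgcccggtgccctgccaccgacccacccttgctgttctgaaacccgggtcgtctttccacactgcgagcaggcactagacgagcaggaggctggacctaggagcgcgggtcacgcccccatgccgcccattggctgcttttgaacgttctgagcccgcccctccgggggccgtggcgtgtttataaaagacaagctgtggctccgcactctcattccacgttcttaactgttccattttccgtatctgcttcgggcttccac
ID2: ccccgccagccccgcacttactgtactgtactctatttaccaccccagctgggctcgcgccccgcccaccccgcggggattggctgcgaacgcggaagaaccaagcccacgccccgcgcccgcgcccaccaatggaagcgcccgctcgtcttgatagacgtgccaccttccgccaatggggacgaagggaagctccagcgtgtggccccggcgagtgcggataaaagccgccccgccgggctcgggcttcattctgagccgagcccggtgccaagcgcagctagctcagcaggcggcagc
ID3: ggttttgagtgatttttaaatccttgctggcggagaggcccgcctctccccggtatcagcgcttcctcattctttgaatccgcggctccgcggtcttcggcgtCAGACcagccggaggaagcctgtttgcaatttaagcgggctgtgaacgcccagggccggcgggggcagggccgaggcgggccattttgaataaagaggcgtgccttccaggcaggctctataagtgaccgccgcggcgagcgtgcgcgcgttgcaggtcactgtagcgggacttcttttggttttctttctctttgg
BAMBI: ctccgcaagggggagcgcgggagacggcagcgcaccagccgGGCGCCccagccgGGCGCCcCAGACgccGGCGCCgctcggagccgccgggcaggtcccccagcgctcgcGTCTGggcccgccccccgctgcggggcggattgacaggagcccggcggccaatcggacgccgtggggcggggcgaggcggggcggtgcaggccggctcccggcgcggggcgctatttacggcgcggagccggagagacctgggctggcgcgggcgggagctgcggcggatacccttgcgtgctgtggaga
BMP4: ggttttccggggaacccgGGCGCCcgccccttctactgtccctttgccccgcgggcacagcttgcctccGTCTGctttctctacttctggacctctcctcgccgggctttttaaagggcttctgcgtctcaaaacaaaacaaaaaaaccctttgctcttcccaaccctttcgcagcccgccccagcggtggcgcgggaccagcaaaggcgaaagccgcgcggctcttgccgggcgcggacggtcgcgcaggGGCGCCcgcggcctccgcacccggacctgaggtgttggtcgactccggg

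The BAMBI window holds GGCGCC 3 times, from bases 42, 55 and 70, with CAGAC or GTCTG from bases 62 and 111. The BMP4 window, that of the farthest upstream of its 3 RefSeq starts, holds GGCGCC from bases 19 and 252 and GTCTG from base 70. Those of its other starts, chr14:53953346-53953645 and chr14:53954439-53954738, hold no GGCGCC. They hold CAGAC or GTCTG from bases 205 and 256. The ID3 window holds CAGAC from base 104, and the ID1 and ID2 windows hold none of the 3 motifs. Of 35116 windows of this length in the table, 19.2% hold GGCGCC, 45.3% hold CAGAC or GTCTG and 2.62% hold CTTTGAT or its reverse complement. Windows were found for 8 of the 10 genes, and none of them holds CTTTGAT. Among the genes not shown, SMAD7 and SMAD9 have windows with CAGAC or GTCTG, SMAD6 does not, and none has GGCGCC. A match describes letters in the window and not binding. A window without a match says nothing of the sequence outside it. GC content was 80% in the BAMBI window, 66% in the BMP4 window, and 62.7%, 69% and 59.7% in the windows of ID1, ID2 and ID3.

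Among the ligands, BMP7 and BMP4 were abundant and BMP2 was close to absent. BMP4, a ligand that many colorectal cancer lines express (ENSG00000125378, chromosome 14, 53949736 to 53958761), had 105.2, 112.0, 107.3 and 108.8 CPM in SPOCK1 libraries 1 to 4, and 93.7, 92.9, 99.3 and 89.8 CPM in vector libraries 1 to 4. Its lowest SPOCK1 library lay above its highest vector library. The log2 fold change was 0.21 ± 0.07 (SE), with a 95% interval of 0.05 to 0.36, and the adjusted p was 0.218 in edgeR's quasi-likelihood test. The interval allows a fold of 1.04 to 1.28. When each library was corrected by offsets for GC content and length of exons, BMP4 was called, at 0.23 ± 0.06 (adjusted p = 0.0357, edgeR). That fit called 3.91% of all tested genes, and 2.31% as higher. It also moved the median log2 fold change of all tested genes, from -0.0042 without offsets to 0.0302. BMP4 had a log2 fold change of 0.14 within libraries 1 and 3 and 0.27 within libraries 2 and 4 (adjusted p = 0.62 and 0.153, edgeR). Over all other settings its adjusted p lay above 0.05.

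BMP7, a ligand of the BMP5 to BMP8 branch (ENSG00000101144, chromosome 20, 57168748 to 57266629), had 243.1, 276.2, 254.2 and 300.3 CPM in SPOCK1 libraries 1 to 4 and 277.4, 290.4, 278.4 and 280.4 CPM in vector libraries 1 to 4. The SPOCK1 libraries were spread on both sides of the vector libraries, with a coefficient of variation of 9.42% against 2.12%. Its log2 fold change was -0.07 ± 0.08 (SE), with a 95% interval of -0.23 to 0.09 (adjusted p = 0.743, edgeR). Within libraries 2 and 4 alone it was 0.01, so no direction can be given. The level of BMP7 per gene length was 1.31 to 1.57 times that of BMP4 in SPOCK1 libraries and 1.59 to 1.78 times in vector libraries, without overlap. This ratio was chosen after the values were seen and has no test.

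BMP2, the closest relative of BMP4, had 0, 0, 2 and 0 counts in SPOCK1 libraries 1 to 4 and 0, 2, 2 and 2 counts in vector libraries 1 to 4. Pooled over each group and scaled to library size, the ratio of 2 to 6 counts was 0.339, and its exact 95% interval, for counting error alone, was 0.0335 to 1.9. No difference in BMP2 was detectable at this depth.

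The 3 ID genes had positive log2 fold changes, and their levels differed widely. ID2 (ENSG00000115738, chromosome 2, 8678845 to 8684453) had 299.2, 253.4, 263.2 and 236.7 CPM in SPOCK1 libraries 1 to 4 and 219.0, 214.9, 220.2 and 228.0 CPM in vector libraries 1 to 4. Every SPOCK1 library was above every vector library, and SPOCK1 library 1 was the highest. This gave a log2 fold change of 0.26 ± 0.08 (SE), with a 95% interval of 0.09 to 0.42 (adjusted p = 0.158, edgeR), which allows a fold of 1.06 to 1.34. Without SPOCK1 library 1 it was 0.19 (adjusted p = 0.327). It was 0.36 within libraries 1 and 3 and 0.14 within libraries 2 and 4 (adjusted p = 0.391 and 0.568). Under the GC and length correction ID2 was called, at 0.26 ± 0.07 (adjusted p = 0.038). The longest transcripts of ID2 and BMP4 have a GC content of 53.3% and 54%, and those of SMAD6 and SMAD7 58.9% and 58.7%. Exons of ID2 overlap those of the antisense gene ID2-AS1, which had 965 counts in all 8 libraries together. The strand setting of the counting is not given, so reads of the pair cannot be told apart.

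ID1 (chromosome 20, 31605283 to 31606515) had 4.31, 4.59, 4.07 and 5.13 CPM in SPOCK1 libraries 1 to 4, and 3.45, 4.78, 3.26 and 4.63 CPM in vector libraries 1 to 4. The groups overlapped, with the vector libraries 2 and 4 inside the range of the SPOCK1 libraries. Over all libraries the log2 fold change was 0.16 ± 0.17 (SE), with a 95% interval of -0.19 to 0.52 (adjusted p = 0.715, edgeR). It was 0.32 within libraries 1 and 3 and 0.04 within libraries 2 and 4. Without vector library 1 or 3 or SPOCK1 library 4 it was 0.10, 0.08 and 0.10, and without vector library 2 it was 0.25.

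ID3 (chromosome 1, 23557918 to 23559794) had 1.87, 2.37, 2.31 and 1.88 CPM in SPOCK1 libraries 1 to 4 and 1.77, 2.05, 1.75 and 1.73 CPM in vector libraries 1 to 4. Vector library 2 lay inside the range of the SPOCK1 libraries. Its log2 fold change was 0.21 ± 0.20 (SE), with a 95% interval of -0.22 to 0.63 (adjusted p = 0.697, edgeR). At 65 to 100 counts per library, ID3 could not be told from a fold between 0.859 and 1.55. ID4, the remaining gene of the family, had 0 counts in every library, which allows up to 0.0199 CPM over the SPOCK1 libraries and 0.0195 CPM over the vector libraries.

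Per gene length, ID2 stood far above the other ID genes in both groups. It had 119.3 ± 11.99 CPM per kilobase in SPOCK1 libraries and 100 ± 2.48 in vector libraries (SD, n = 4 each). ID1 had 3.67 ± 0.371 CPM per kilobase with SPOCK1 and 3.27 ± 0.638 with vector, and ID3 had 1.17 ± 0.149 with SPOCK1 and 1.02 ± 0.084 with vector. Within a library, ID2 was 25.8 to 38.9 times ID1 with SPOCK1 and 25.1 to 37.8 times with vector. ID2 was 87.3 to 130 times ID3 with SPOCK1 and 85.4 to 107 times with vector. The ranges of both ratios overlapped between the groups.

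By the mean profile of the 3 ID genes over the 8 libraries, the most alike of 13180 genes with a mean of 1 CPM or more were PFDN2, KIAA1755, SERPINE2, ADRA1B and PPAN. Pearson correlations of log2 CPM were 0.986, 0.972, 0.967, 0.965 and 0.952 over 8 libraries, which share their depth and GC trend between genes. In all, 37 genes reached 0.9. The mean gives the 3 ID genes equal weight, and their own profiles differed. SPOCK1 library 4 had the highest SPOCK1 value of ID1, 5.13 CPM, and the lowest of ID2, 236.7 CPM. None of the 5 passed the test (edgeR adjusted p of 0.529, 0.332, 0.0611, 0.253 and 0.459). SERPINE2 was called in DESeq2, without the filter on low counts and under the GC and length correction (adjusted p = 0.0139, 0.024 and 0.0377), and ADRA1B under that correction (adjusted p = 0.0277). SERPINE2, a secreted serine protease inhibitor, had the largest log2 fold change of the 5, at 0.61. The 5 were picked over the same 8 libraries by likeness to genes with positive log2 fold changes. That choice favours positive values in them, so their fold changes are no separate evidence.

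Among the feedback inhibitors, SMAD6 had the log2 fold change of largest size among the 8 tested genes. SMAD6, which blocks BMP type I receptors and SMAD1 (ENSG00000137834, chromosome 15, 66702228 to 66782848), had 86, 99, 133 and 95 counts in SPOCK1 libraries 1 to 4 and 122, 155, 118 and 208 counts in vector libraries 1 to 4. On scaled library sizes these were 2.3, 2.82, 3.07 and 2.71 CPM with SPOCK1, and 3.19, 4.18, 3.18 and 5.07 CPM with vector. The highest SPOCK1 library, 3, lay just under the lowest vector libraries, 1 and 3. The log2 fold change was -0.52 ± 0.19 (SE), with a 95% interval of -0.92 to -0.12 (adjusted p = 0.245, edgeR). It was -0.24 within libraries 1 and 3 and -0.75 within libraries 2 and 4 (adjusted p = 0.739 and 0.147), and -0.37 without vector library 4 (adjusted p = 0.434). After correction for GC content and length it was -0.39 ± 0.18 (adjusted p = 0.234).

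SMAD7, which inhibits both BMP and TGF-β receptors (chromosome 18, 48919853 to 48952052), had 27.5, 31.2, 31.0 and 32.3 CPM in SPOCK1 libraries 1 to 4 and 31.1, 32.7, 30.3 and 32.3 CPM in vector libraries 1 to 4. The groups overlapped, and SPOCK1 library 1 was the lowest of the 8. Its log2 fold change was -0.05 ± 0.09 (SE), with a 95% interval of -0.24 to 0.14 (adjusted p = 0.843, edgeR). After that correction it was 0.0283, where the median of all tested genes was 0.0302. Without SPOCK1 library 1 it was -0.0071, so no direction can be given.

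BAMBI (ENSG00000095739, chromosome 10, 28677342 to 28682939) had 238.7, 255.3, 253.5 and 251.6 CPM in SPOCK1 libraries 1 to 4 and 273.1, 282.4, 254.9 and 281.8 CPM in vector libraries 1 to 4. The groups overlapped by vector library 3, which was just under SPOCK1 library 2. The log2 fold change was -0.13 ± 0.07 (SE), with a 95% interval of -0.28 to 0.02 (adjusted p = 0.442, edgeR). It lay between -0.16 and -0.10 in 20 alternative settings and was called in 0 of them.

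SMAD9, the receptor-regulated SMAD of the set, had 6, 6, 4 and 4 counts in SPOCK1 libraries 1 to 4 and 4, 13, 8 and 5 in vector libraries 1 to 4. The pooled ratio of 20 to 30 counts was 0.678 after scaling, and its exact 95% interval on the counts was 0.365 to 1.23. Without the filter on low counts SMAD9 and BMP2 could be fitted, with edgeR adjusted p of 0.812 and 0.74.

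**Figure D2:**
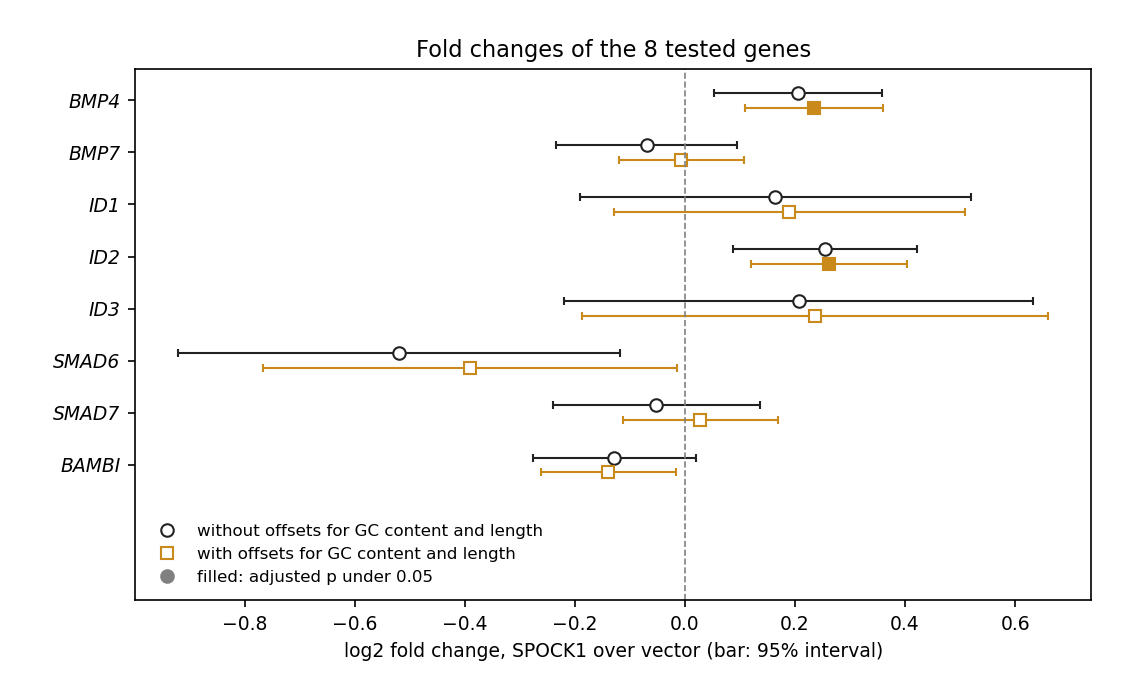
Log2 fold change, SPOCK1 over vector (horizontal axis), of the 8 tested genes with 95% intervals, without (circles) and with (squares) offsets for GC content and length, filled where the adjusted p was under 0.05. Only BMP4 and ID2 are filled, and only with offsets, at 0.23 and 0.26.

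Ordered by level per gene length, the set spanned more than 4 orders of magnitude and had nearly the same order in both groups. That span rests on BMP2, with 2 counts in all SPOCK1 libraries together and 6 in all vector libraries. Down to SMAD9, the next lowest, it was 119 to 0.0235 CPM per kilobase with SPOCK1 and 118 to 0.0346 with vector, under 4 orders. In SPOCK1 libraries the order was ID2, BAMBI, BMP7, BMP4, SMAD7, ID1, ID3, SMAD6, SMAD9 and BMP2. In vector libraries BAMBI stood above ID2, at 118 ± 5.53 against 100 ± 2.48 CPM per kilobase (SD, n = 4 each), and the order was otherwise identical. The ranges of ID2 and BAMBI overlapped in SPOCK1 libraries, at 107.3 to 135.7 and 103.1 to 110.3 CPM per kilobase, and did not in vector libraries. All other neighbours in the order had ranges that did not overlap in either group. In vector cells BAMBI, ID2, BMP7 and BMP4 ranked at places 357, 428, 917 and 1579 of the 15790 tested genes. SMAD7, ID1, ID3 and SMAD6 ranked at places 5527, 7672, 10971 and 12872. The length is the union of all annotated exons, so order and ranks depend on the annotation.

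**Figure D3:**
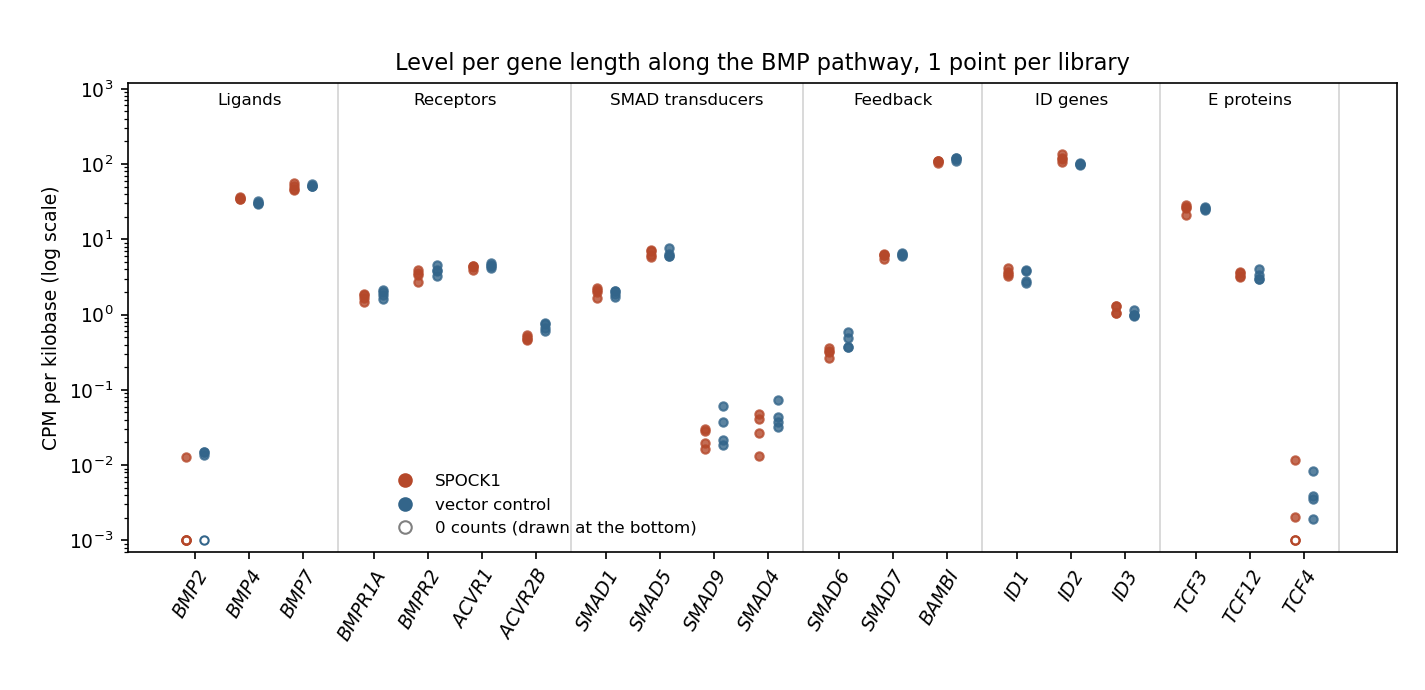
CPM per kilobase of gene length (vertical axis, log scale) of ligands, receptors, SMAD transducers, feedback inhibitors, ID genes and E proteins, 1 point per library, SPOCK1 left of vector for each gene, with open points for 0 counts. BAMBI, ID2, BMP7 and BMP4 lie above 10 in every library, while SMAD4, SMAD9, BMP2 and TCF4 lie below 0.1.

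Of the transducers that join ligands to ID genes, SMAD1 and SMAD5 were present, while SMAD4, like SMAD9, was scarce. SMAD4, the partner of all receptor-regulated SMADs (chromosome 18, 51028394 to 51085045), had 13, 6, 23 and 22 counts in SPOCK1 libraries 1 to 4 and 16, 21, 18 and 40 counts in vector libraries 1 to 4. It ranked at place 15649 of 15790 per gene length in vector cells, with a union of exons of 13123 bases. The fit gave a log2 fold change of -0.54 ± 0.44 (SE), with edgeR's adjusted p at 0.627, and the groups overlapped. SMAD5 averaged 59.2 ± 6.02 CPM with SPOCK1 and 58.9 ± 6.66 CPM with vector, and SMAD1 averaged 12.2 ± 1.67 CPM with SPOCK1 and 11.7 ± 1.12 CPM with vector (SD, n = 4 each). Their log2 fold changes were 0.01 ± 0.10 and 0.06 ± 0.13 (SE), with 95% intervals of -0.20 to 0.21 and -0.21 to 0.33 (adjusted p = 0.983 and 0.876, edgeR). Both had the opposite sign within libraries 2 and 4 alone, at -0.06 and -0.13, so no direction can be given.

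Of 12 BMP receptors and co-receptors 9 were tested, and none passed the test. BMPR1A, a type I receptor, averaged 19.6 ± 2.02 CPM with SPOCK1 and 21.6 ± 2.49 CPM with vector (SD, n = 4 each). BMPR2, the type II receptor of BMP ligands, averaged 40.3 ± 6.01 CPM with SPOCK1 and 46.2 ± 6.33 CPM with vector. ACVR1, a type I receptor that BMP7 uses, averaged 17.1 ± 0.953 CPM with SPOCK1 and 17.9 ± 1.03 CPM with vector. Their log2 fold changes were -0.14 ± 0.11, -0.20 ± 0.12 and -0.07 ± 0.10 (SE), with adjusted p of 0.629, 0.49 and 0.805 (edgeR). BMPR1B, another type I receptor, had 0 counts in every SPOCK1 library and 0, 0, 8 and 2 counts in vector libraries 1 to 4. ACVR2B, a type II receptor shared by activins, GDF11 and BMP7, had 267, 298, 340 and 262 counts in SPOCK1 libraries 1 to 4 and 448, 384, 448 and 389 counts in vector libraries 1 to 4. Every SPOCK1 library was below every vector library after scaling, at 7.74 ± 0.582 CPM against 10.9 ± 1.2 CPM. ACVR2B had a log2 fold change of -0.49 ± 0.12 (SE), and missed the threshold at an adjusted p of 0.0739 (edgeR). It passed under the GC and length correction, in DESeq2 and without the filter on low counts (adjusted p = 0.0377, 0.0176 and 0.049), where 3.91%, 2.64% and 1.39% of genes did. In the remaining settings it missed the threshold, at adjusted p of up to 0.493.

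Of 107 other genes, in 9 lists by role, 72 were tested, 0 rose and 1 fell, against 0.798% of all tested genes that fell. The lists cover the BMP pathway and, in 1 list, TGF-β and activin ligands and receptors. The gene that fell came from that list and was INHBB, the activin βB subunit (ENSG00000163083, chromosome 2, 120346143 to 120351808). It had 31.3, 38.8, 37.0 and 40.5 CPM in SPOCK1 libraries 1 to 4 and 55.2, 52.8, 45.9 and 49.2 CPM in vector libraries 1 to 4. All SPOCK1 libraries lay under all vector libraries. INHBB fell by 27.3%, at -0.46 ± 0.10 on the log2 scale (SE) and an adjusted p of 0.0281 (edgeR). With replicate numbers as blocks it was no longer called (adjusted p = 0.0684). It was also lost without SPOCK1 library 1, 2 or 3 (adjusted p = 0.0562, 0.078 and 0.0897) and without vector library 1, 2 or 4 (adjusted p = 0.0966, 0.107 and 0.0587). Within libraries 1 and 3 and within libraries 2 and 4 the adjusted p was 0.309 and 0.0759.

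By role, the median log2 fold change was -0.30 in 7 tested BMP and GDF ligands outside the set, -0.14 in 9 receptors and co-receptors, 0.01 in 5 SMAD transducers, 0.03 in 6 secreted antagonists and 0.02 in 6 genes of ligand processing. It was -0.08 in 15 SMAD regulators, -0.14 in 13 TGF-β and activin ligands and receptors, -0.12 in 9 other BMP-responsive genes and 0.01 in 2 E proteins, beside -0.0042 over all tested genes. Of the 72 genes 14 had an unadjusted p under 0.05, where 13.7% of all tested genes did, and 9 had no overlap between the groups, where 8.23% did. No gene passed the test in 8 of the 9 lists, and for each of these the gene with the smallest p follows. GDF9, a ligand of the ovary, had 10, 16, 23 and 16 counts in SPOCK1 libraries 1 to 4 and 0, 2, 10 and 4 in vector libraries 1 to 4 (adjusted p = 0.175, edgeR). Its exons overlap those of UQCRQ, a gene with 47263 counts, so its few reads cannot be told apart from those of its neighbour. PCSK6, a convertase of the family that cleaves BMP precursors, averaged 35.5 ± 2.69 CPM with SPOCK1 and 30.0 ± 0.859 CPM with vector (SD, n = 4 each), without overlap (log2 fold change 0.24 ± 0.09, SE, adjusted p = 0.245, edgeR). The GC and length correction gave a call, at 0.39 ± 0.08 (adjusted p = 0.0124). The smallest adjusted p was 0.623 for NBL1, a secreted antagonist of the DAN family, 0.388 for SKIL, a SMAD co-repressor, and 0.302 for TBX2, a T-box factor (edgeR). It was 0.47 for SMAD3, a transducer of TGF-β and activin, and 0.0739 for ACVR2B, described above.

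Among the 7 tested BMP and GDF ligands outside the set, 6 had an unadjusted p under 0.05, beside 13.7% of all tested genes. Of the 6, 1 was higher (GDF9) and 5 were lower, and none passed the test. GDF15, a stress-induced ligand that signals through GFRAL, averaged 20.5 ± 2.12 CPM with SPOCK1 and 25.1 ± 1.67 CPM with vector (SD, n = 4 each), without overlap (log2 fold change -0.30, adjusted p = 0.21, edgeR). GDF11, a ligand close to myostatin, averaged 59.3 ± 4.42 CPM with SPOCK1 and 67.1 ± 0.948 CPM with vector, also without overlap (log2 fold change -0.18, adjusted p = 0.34). BMP8B averaged 7.37 ± 0.907 CPM with SPOCK1 and 9.18 ± 0.524 CPM with vector (adjusted p = 0.295), and its exons overlap those of PPIE, a gene with 18006 counts. BMP8A and BMP8B are near-identical copies, and AMH, the hormone that regresses Müllerian ducts, and BMP8A had adjusted p of 0.225 and 0.279. Of the activin and TGF-β receptors, ACVR1B averaged 72.6 ± 5.35 CPM with SPOCK1 and 88.2 ± 2.71 CPM with vector, and TGFBR2 averaged 35.0 ± 2.6 CPM with SPOCK1 and 29.3 ± 1.53 CPM with vector (SD, n = 4 each). Neither passed the test (adjusted p = 0.115 and 0.233, edgeR), though the groups overlapped in neither. ACVR1B was called in DESeq2 and under the GC and length correction (adjusted p = 0.0442 and 0.0308). That correction also called LTBP2, a latent TGF-β binding protein, at 0.29 ± 0.06 (SE, adjusted p = 0.0202).

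Of the E proteins that ID proteins bind, TCF3 averaged 155.9 ± 19.6 CPM with SPOCK1 and 157.1 ± 5.75 CPM with vector, and TCF12 averaged 32.1 ± 2.13 CPM with SPOCK1 and 31.4 ± 5.05 CPM with vector (SD, n = 4 each). Their adjusted p were 0.972 and 0.924 (edgeR), with 95% intervals of the log2 fold change of -0.20 to 0.18 and -0.20 to 0.27. TCF4 had 12, 0, 0 and 2 counts in SPOCK1 libraries 1 to 4 and 9, 4, 2 and 4 counts in vector libraries 1 to 4 and was not tested.

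**Figure D4:**
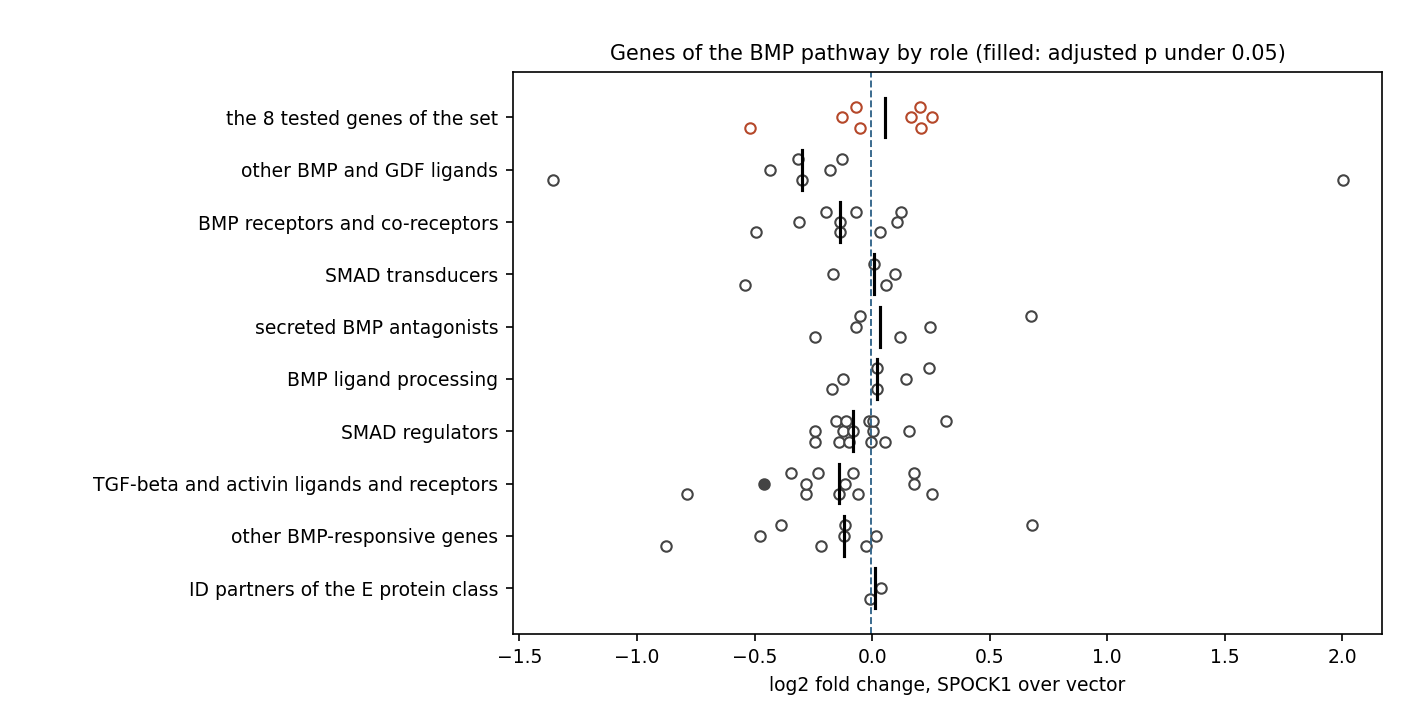
Log2 fold change, SPOCK1 over vector (horizontal axis), of tested genes by role, 1 point per gene, with the median of each list as a black bar and that of all tested genes, -0.0042, as a dashed line. INHBB, at -0.46, is the filled point past an adjusted p of 0.05.

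**Figure D5:**
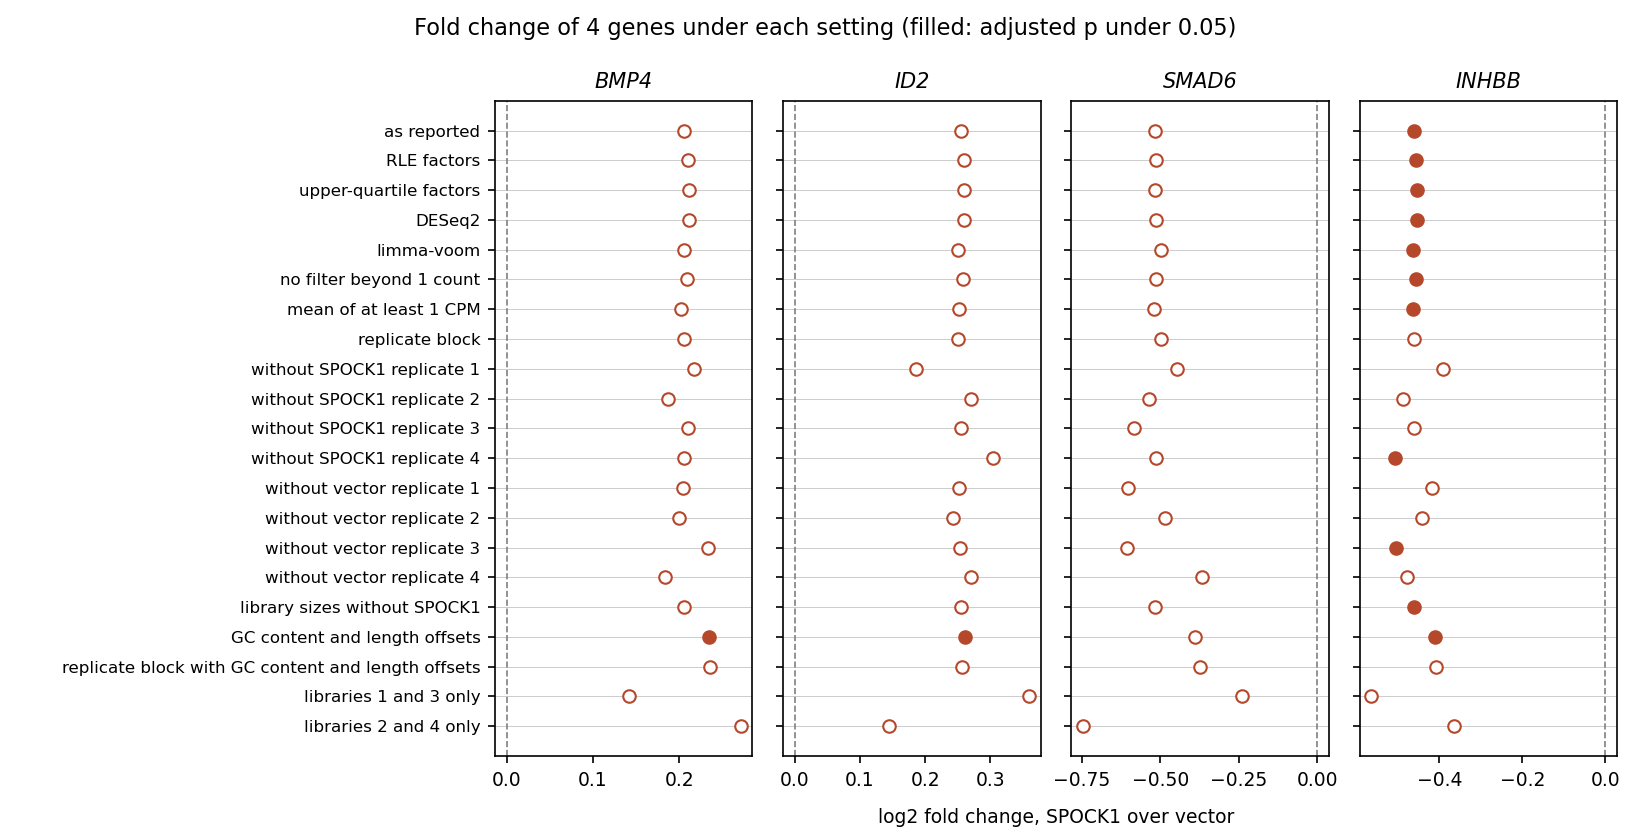
Log2 fold change, SPOCK1 over vector (horizontal axes), of BMP4, ID2, SMAD6 and INHBB as reported and under 20 alternative settings (rows), filled where the adjusted p was under 0.05. BMP4 and ID2 are filled with the GC and length offsets alone, SMAD6 in no setting and INHBB in 10 of the alternatives.

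The plot of settings shows that the signs of BMP4, ID2 and SMAD6 held in all 20 alternatives. Since the groups did not overlap in these 3 genes, the signs without a library were nearly fixed. BMP4 ranged from 0.14 to 0.27, ID2 from 0.14 to 0.36 and SMAD6 from -0.75 to -0.24. These are bulk libraries, in which fewer cells with a transcript and less of it per cell cannot be told apart.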

How the data were processed

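RNA was measured in 8 SW480 libraries. The deposited values are whole-number read counts per gene, without normalization. The submitters' processing notes name CASAVA, HISAT2 2.0.5 and featureCounts 1.5.0-p3. For build, strand setting and multiply mapping reads, the sources used here state nothing. Gene coordinates and lengths of all 58735 genes were identical to those of GENCODE 29 (GRCh38), the lengths being the union of exons. RefSeq windows come from GRCh38.p14 and are given in their own coordinates.

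Counts were tested with edgeR 4.0.16 in R 4.3.3: filterByExpr (minimum count 10, minimum total 15, which left 15790 genes), TMM factors, and the quasi-likelihood F test of SPOCK1 against vector without covariates, with Benjamini-Hochberg adjustment over all genes tested. Genes past an adjusted p of 0.05 are called. Standard errors come from the F statistic. Total counts of 35643585 to 42812951 set the precision, and intervals and floors (3 counts) on pooled counts cover counting error only. CPM per kilobase is CPM divided by the deposited gene length. Where this union of exons is longer than the transcript present, the value is too low. Orders, ranks and ratios between genes therefore depend on the annotation.

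Members and lists were chosen with earlier results of these data known. The rule named SPOCK1, the 10 genes of the set, SMAD1, SMAD4, SMAD5, BMPR1A, BMPR2, ACVR1, TCF3, TCF4 and TCF12 whatever their values. It added each called pathway gene, the smallest p of each list without a call, and the 5 genes most like the mean ID profile. KRT8, KRT18, KRT19, KRT20, CDX1, LGALS4, CDX2, VIL1, ACTA2, VWF, HBA1, PTPRC, COL1A2, COL3A1 and CDH1 were named after their values were seen. So were ID4, BMPR1B, GDF15, GDF11, BMP8A, BMP8B, AMH, ACVR1B, TGFBR2 and LTBP2. The 140 list symbols were all found.

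Alternatives were DESeq2 1.42.0, limma-voom (limma 3.58.1), RLE or upper-quartile factors, other filters, library sizes without SPOCK1, the replicate block, each library left out, libraries 1 and 3 or 2 and 4 alone, and offsets per library from natural splines (5 degrees of freedom) on GC content of the longest transcript and on exonic length. These also take out any real difference that runs along GC content or length.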

Additional observations from a re-analysis of the deposited data

Results flagged for a closer look

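In groups of 4 libraries, 54 groups of 27 named genes were looked at, and 3 held 1 library far from the other 3, where chance alone flags about 1 group in 20. ID3 stood at 2.052 CPM in vector library 2, above the other vector libraries by 0.86 of the group's range. The other cases were BMP2 at 0.0462 CPM in SPOCK1 library 3, where the other SPOCK1 libraries had 0 counts, and BMP2 at 0 CPM in vector library 1, where the other vector libraries had 2 counts each. Both BMP2 cases rest on at most 2 counts, so the rate given for chance does not apply to them.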

How the results depend on the processing

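No gene of the set was called in 19 of 20 alternatives, and with GC content and length offsets, which called 3.91% of all tested genes, 2 were called, BMP4 and ID2. The cause was not tested. The number of other pathway genes called was 1 as reported. It was 3 in DESeq2 (2.64% of all genes called), 2 without the filter (1.39%), 5 with offsets (3.91%), 0 with the replicate block (0.728%), 0 with block and offsets together (1.32%), 0 within libraries 1 and 3 (0.0494%) and 0 within libraries 2 and 4 (0.881%), and 0 to 1 without 1 library. In the sets of 2 libraries per group fewer samples entered the fit. Of 160 pairs of a tested member and an alternative, 155 kept direction and side of the threshold, 2 passed it and 3 had the opposite sign. BMP7 was at 0.0123 within libraries 2 and 4, and SMAD7 at 0.0283 with offsets and 0.0276 with block and offsets. The median of all tested genes was 0.0302 with offsets and 0.0292 with block and offsets. Among other genes, the sign turned within libraries 2 and 4 for SMAD1 (-0.13), SMAD5 (-0.0599) and TCF3 (0.10), within libraries 1 and 3 for TCF12 (-0.11), and with offsets for TCF3 (0.0936, and 0.0929 with the block). Without 1 library, SMAD1 ranged from -0.0044 to 0.15, SMAD5 from -0.0370 to 0.0886, TCF3 from -0.0675 to 0.0703 and TCF12 from -0.0201 to 0.15. Same-numbered libraries did not deviate together (correlations of deviations of -0.0739, 0.0317, 0.0277 and 0.0817), and not every library correlated best with its own number. The numbers are therefore not read as pairs. With the replicate block 115 of all tested genes were called, against 165 without it. Depth limits what can be said of low genes such as BMP2, SMAD9 and SMAD4.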
